A study of Homo sapiens with 72 samples.

Results

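The genes described here encode the proteins of the cytosolic ribosome. A gene was taken when its symbol was RPL or RPS followed by a number, alone or with one of the letters A, L or X, or was RPLP0, RPLP1, RPLP2 or RPSA. This gave 81 of the 61541 genes listed in each of the authors' 11 tables, 49 of the large subunit and 32 of the small subunit. The rule used names only, and no measured value. It also takes 4 paralogs whose names end in L (RPL3L, RPL10L, RPL39L and RPS27L), and it leaves out FAU, which encodes a ribosomal protein fused to a ubiquitin-like protein.

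Each ribosome holds 1 copy of nearly every protein of its subunit, so cells make these proteins in matched amounts. Most of their mRNAs begin with a terminal oligopyrimidine (TOP) tract, a C followed by a short run of C and T, through which mTOR and the binding protein LARP1 set how much of them is translated or stored. G3BP1 and its paralog G3BP2 are RNA-binding proteins on which stress granules depend, and stress granules collect mRNAs and small ribosomal subunits when arsenite or another stress halts translation. The NTF2 domain of G3BP1 is the part through which the protein pairs with itself and binds partner proteins.

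The study asked which RNAs G3BP1 binds and how RNA levels change with it. RNA immunoprecipitation sequencing (RIP-seq) compared 3 immunoprecipitate (IP) with 3 input libraries from FlpIn 293 Trex cells, an embryonic kidney line with stable FLAG-G3BP1 induced by 1 ug/mL tetracycline for 24 h. RNA-seq in U2OS, a bone osteosarcoma line, came in 2 experiments, where each group had 2 libraries. Compared first were wild-type cells, G3BP1/2 knockout cells and knockout cells 24 h after Lipofectamine transfection of a G3BP1 transgene, here called the G3BP1 rescue, all without arsenite. The second compared 3 kinds of cell, each untreated and after 200 uM sodium arsenite for 2 h: G3BP1/2 knockout cells, and knockout cells transfected for 24 h with wild-type G3BP1 (wild-type rescue) or with G3BP1 lacking its NTF2 domain (NTF2-deletion rescue). All cells of the second experiment thus carry the knockout. The knockout and wild-type cells were not transfected, and no mock-transfected group was used here, so an effect of G3BP1 and one of the transfection cannot be told apart. Whether the knockout line is 1 clone is not given in the sources used here.

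The first bases of these mRNAs are shown because the TOP tract is the feature by which they are usually grouped. RefSeq (GRCh38.p14) gave an annotated start for 64 of the 81 genes. Each line below holds 10 bases before the start and 15 from it, on the gene's strand, with the pyrimidine run that begins with C at the start in capitals; these are genome positions of that build, while the build behind the counts is not given in the sources used here. The genes shown are those with high, low or opposed values below, beside RPS6 and RPLP0 for comparison.
RPS3A, chr4:151099618-151099642, plus strand: cccacttccgCCCTTTTggctctct
RPL18, chr19:48619164-48619188, minus strand: agcccgttctCTCTTTCCggacctg
RPS9, chr19:54200848-54200872, plus strand: gcttccgcgcCTCTTTCTCagtgac
RPL36A, chrX:101391001-101391025, plus strand: ctcgcggtttCTTTCTTTCCgcgcc
RPL7A, chr9:133348208-133348232, plus strand: attccctttcCTTTCTCTCTCCTCC
RPL22, chr1:6199581-6199605, minus strand: cgctcacctcCCTTTCTaactccgc
RPL24, chr3:101686704-101686728, minus strand: atgattctctCTTTCTTTTCgccat
RPS23, chr5:82278340-82278364, minus strand: cggtgcttctCTCTTTCgctcaggc
RPL14, chr3:40457329-40457353, plus strand: ggtcttcttcCTTCTCgcctaacgc
RPS6, chr9:19380222-19380246, minus strand: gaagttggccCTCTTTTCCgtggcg
RPLP0, chr12:120201097-120201121, minus strand: ggcgcgaggcCCTTCTCTCgccagg
RPL4, chr15:66504841-66504865, minus strand: cgggagtggtaagcacttccttttc
RPS27L, chr15:63157463-63157487, minus strand: gatgccgagcgcagatcgcttgcag

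A C followed by at least 4 pyrimidines stood at an annotated start in 46 of the 64 genes, or 71.9%, against 5.14% of the 27305 genes of the same table. The share was 71.8% among large-subunit genes and 72% among small-subunit genes. When the tract could begin anywhere from 5 bases before to 5 bases after the start, 53 genes had one, or 82.8%, against 25.2% of all genes. RPL4 is of that kind, since its tract (cttccttttc above) begins after the annotated start. RPS27L, a paralog of RPS27, had no such tract in either window. These letters describe annotated starts; where transcription began in these cells was not measured.

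Read depth differed between the experiments. The reads of each U2OS library, worked out exactly from the base means of the authors' tables, numbered 38590157 to 52470072 over all genes where wild-type cells were included, and 10793184 to 27755473 in the arsenite experiment. The RIP base means of all genes summed to 12170926 normalised reads in the authors' deposited table. The 2 U2OS libraries of a group are called a and b, the deeper first, and carry no replicate number; nothing says that they came from separate cultures, so p-values measure only the spread between these libraries. G3BP1 itself made up 0.03% of gene reads in the knockout and 0.04% in the wild type and the rescue of the first experiment, but 3.83 to 6.22% in the rescued libraries of the second. Its reads thus remained in the cells labelled knockout, at a log2 fold change of -0.56 for G3BP1 and -0.36 for G3BP2 against the wild type in the authors' deposited table, and RNA level is no check of the protein. In the U2OS libraries the mesenchymal genes VIM (935 to 1972 RPM, a gene's reads scaled to the gene reads of its library), COL1A1 (206 to 3518) and THY1 (47.7 to 211) were present, while PTPRC and PECAM1, markers of leukocytes and endothelium, stayed under 1 RPM. EPCAM, an epithelial marker, had 2.73 to 12.1 RPM in U2OS, and NEFL and LIN28B, used here as markers of the kidney line, had 14.3 to 107 and 13.9 to 50.8, so neither tells the lines apart. The cell line's own markers differed with the knockout: the authors' deposited table of knockout over wild type gave log2 fold changes of -2.73 for COL1A1, -1.38 for RUNX2, -0.63 for THY1 and -0.54 for VIM. For the kidney line, the authors' deposited RIP table gave base means of 1164 for LIN28B and 1078 for NEFL, but 4.87 for NEFM and 0.46 for SOX11. Pseudogenes named after ribosomal protein genes held reads equal to 1.51 to 2.01% of the members' own in U2OS.

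Nearly all ribosomal protein mRNAs were more abundant in the FLAG-G3BP1 immunoprecipitate than in the input. No immunoprecipitate from cells without FLAG-G3BP1 was used here, so binding to G3BP1 and background of the immunoprecipitation cannot be told apart. A gene is called when the authors' adjusted p, from DESeq2's Wald test, is under 0.05, and the authors' deposited table called 74 of 80 members higher and 3 lower, where 24.7% of all genes were called higher and 31.4% lower. The median log2 fold change of the 78 members with a base mean of at least 100 was 1.23 in the authors' deposited table, against 0.12 for all genes at that level. Large-subunit genes (44 higher, 1 lower, median 1.22) and small-subunit genes (30 higher, 2 lower, median 1.25) hardly differed in the authors' deposited table. The middle 50% of members ran from 0.89 to 1.63, so enrichment within the family varied by more than the authors' deposited standard errors, whose median was 0.11. No library values could be worked out for RIP, because no other of the authors' tables shares its 6 libraries.

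The authors' deposited RIP table placed RPS3A, a protein on the outer face of the small subunit, highest, at 2.72 ± 0.13 (SE, 3 libraries per group). RPL18 followed at 2.62 ± 0.13 and RPS9, which lies near the decoding site, at 2.35 ± 0.13 in the authors' deposited table (adjusted p of 7.11e-95, 5.89e-95 and 1.63e-66 by the authors' DESeq2 test). The starts printed above show a full tract in all 3. RPL36A, also with a full tract, was the lowest member of base mean at least 100 in the authors' deposited table, at -2.14 ± 0.26. RPS10, with a base mean of only 49.0, stood at -2.23 in the authors' deposited table. RPL17 (0.02) and RPL39 (0.02) were not called in the authors' deposited table, and RPL3L and RPL10L lay at base means of 3.23 and 0.59.

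RPL36A, RPS10 and RPL17 share exons with readthrough genes, RPL36A-HNRNPH2, RPS10-NUDT3 and RPL17-C18orf32, each of which had a base mean of 0 in every experiment in the authors' deposited tables. How reads on shared exons were counted is not given in the sources used here, so the values of these 3 genes are uncertain, and the part of this in their low RIP values was not tested. The members of fixed interest all lay above 0 in the authors' deposited table. RPLP0, which anchors the stalk of the large subunit, stood at 1.92 ± 0.11, RPL13A at 1.70, RPS6, the subunit protein phosphorylated by S6 kinase, at 1.67 ± 0.10, and RPSA at 1.63 in the authors' deposited table. RPS3 (1.59), RPL5 (1.55), RPS19 (1.51) and RPL11 (1.21) came next in the authors' deposited table. RPL22 stood at 0.64 and RPS27L at 0.44 (adjusted p of 0.0475, the authors' DESeq2 test), the lowest of this set in the authors' deposited table. RPL22L1, the paralog of RPL22, was at 0.06 and not called in the authors' deposited table.

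**Figure D1:**
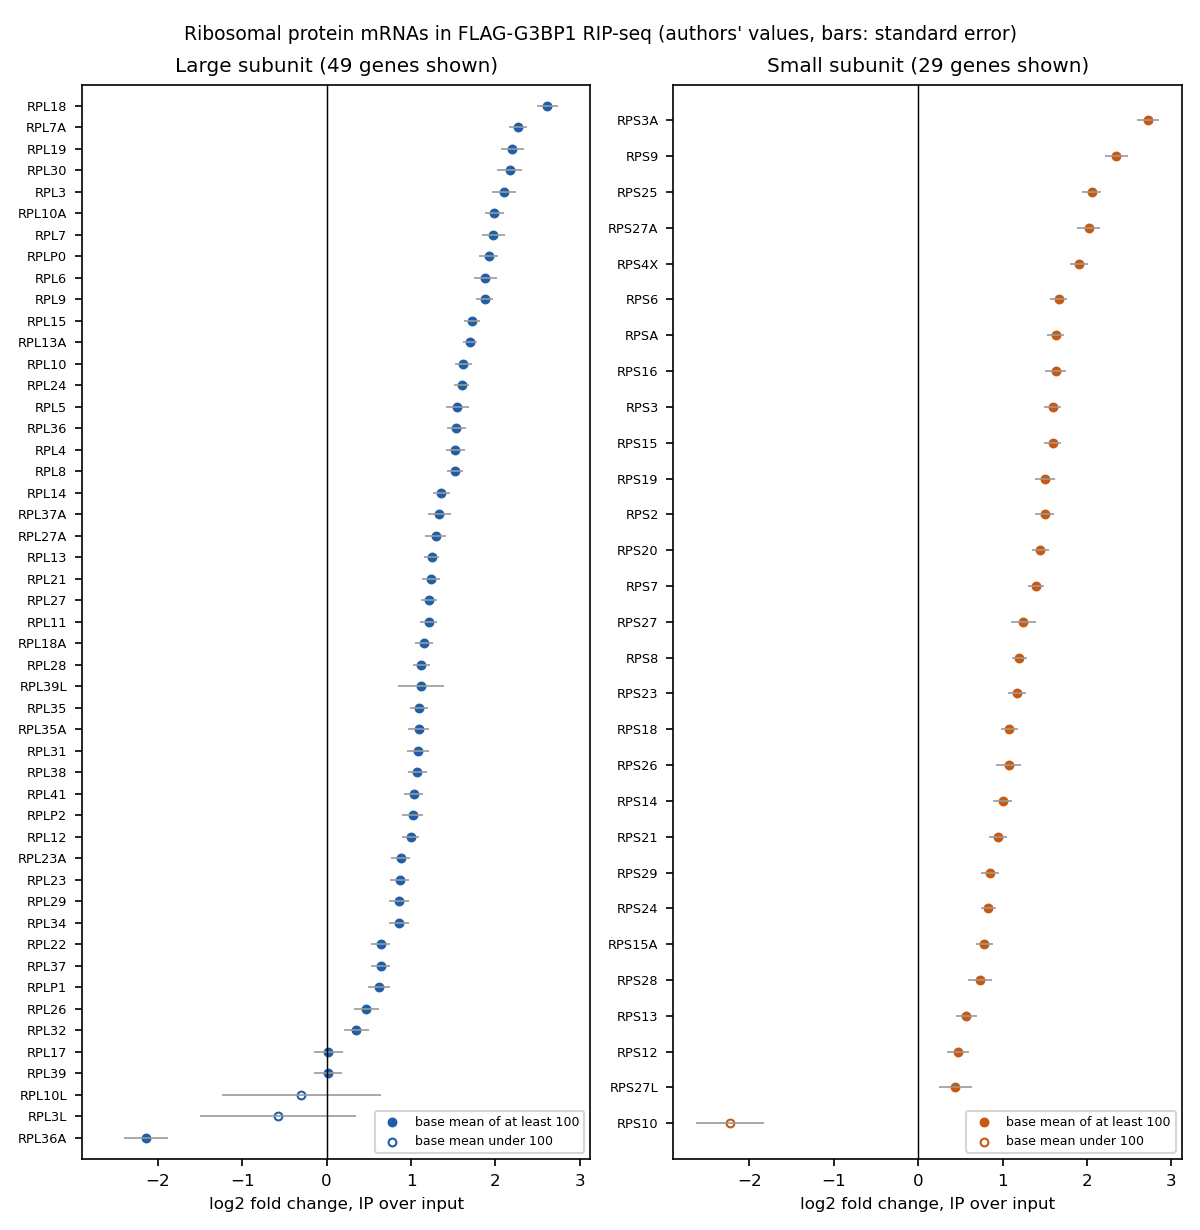
Log2 fold change of each ribosomal protein mRNA, IP over input, from the authors' deposited table (x axis), for large-subunit genes (left) and small-subunit genes (right) that are reported here; bars are the authors' standard errors and open points have base means under 100. RPL18 and RPS3A lie highest and RPL36A and RPS10 lowest, while most genes of both subunits lie between 0.5 and 2.

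Other genes of the translation machinery were counted beside the members. Of 18 TOP mRNAs that encode no ribosomal protein, 17 had an adjusted p, and the authors' deposited RIP table called 15 higher and 1 lower, with a median of 0.68. EEF1A1, the elongation factor that delivers tRNA, stood at 2.22 and RACK1, a small-subunit scaffold, at 1.83, but PABPC1, the poly(A)-binding protein, at -1.11 in the authors' deposited table. The 26 ribosome biogenesis factors split into 11 higher and 10 lower in the authors' deposited table, from FBL at 2.16 to POLR1A at -3.35. Of 10 regulators of ribosomal protein synthesis, the authors' deposited table called 4 higher and 6 lower, with RPS6KB2 at 2.04, MYC at 1.05, LARP1 at -2.17 and MTOR at -3.26. Members with a tract at the start had a median of 1.21 (45 genes) and members without one 1.52 (17 genes) in the authors' deposited RIP table.

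In U2OS, ribosomal protein genes took 2.21 to 3.51% of gene reads, and the share was lowest in knockout cells of both experiments. In the first experiment the share was 2.90 and 2.88% in the wild type, 2.71 and 2.72% in the knockout and 3.42 and 3.51% in the G3BP1 rescue. No groups overlapped, and the rescue exceeded the knockout by a factor of 1.28. The second experiment gave 2.304 and 2.52% in the untreated knockout, 2.93 and 2.91% in the wild-type rescue and 3.10 and 3.06% in the NTF2-deletion rescue. The rescued libraries lay above both knockout libraries, by factors of 1.21 and 1.28. Shares are parts of a whole, and in bulk RNA fewer cells and less RNA per cell cannot be told apart.

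The balance of the subunits moved a little with the knockout. Reads of large-subunit over small-subunit genes stood at 1.51 in library a of the wild type and about the same in library b, 1.38 and 1.37 in the knockout and 1.43 and 1.44 in the rescue of the first experiment. Large-subunit genes made up 0.908 times and small-subunit genes 0.990 times their wild-type share in the knockout. In the second experiment the same ratio was 1.40 in both untreated knockout libraries and 1.469 to 1.497 in the untreated rescues. The 3 kinds of library in the first experiment did not overlap in this ratio. Since a sum over genes follows its most abundant members, single genes are given next.

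**Figure D2:**
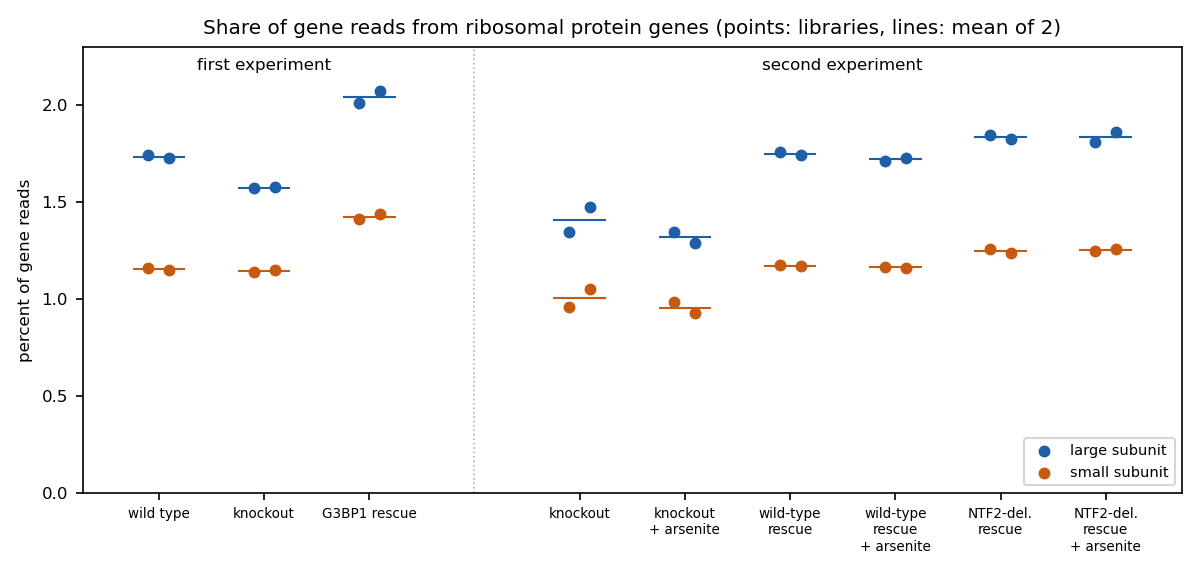
Percent of gene reads that fell on large-subunit (blue) and small-subunit (orange) ribosomal protein genes in each U2OS library (points; lines are the mean of the 2 libraries of a group). Both subunits lie lowest in knockout libraries of the second experiment and highest in rescued libraries; the knockout and wild type of the first experiment differ more in the large than in the small subunit.

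Between knockout and wild-type cells, single ribosomal protein genes moved in both directions. The authors' deposited table called 18 of 81 members higher (22.2%) and 28 lower (34.6%) in the knockout, where 18.4% of all genes were called higher and 19.4% lower. The higher count is near the share of all genes, and the lower count is above it. The median of the 80 members with a base mean of at least 100 was -0.08 in the authors' deposited table, beside 0.00 for all genes at that level. The large subunit had 8 higher and 19 lower and the small subunit 10 higher and 9 lower in the authors' deposited table, with medians of -0.08 and -0.06. Members with a base mean of at least 100 ran from -0.92 to 0.99 there. RPL3L, below that level, was also called higher, with 0.953 and 0.933 RPM in the knockout and 0.067 and 0.187 in the wild type.

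RPS15A, a small-subunit protein that binds the central part of the subunit's rRNA, had 68.6 and 66.1 RPM in the knockout and 33.8 and 34.4 in the wild type. Its log2 fold change was 0.99 ± 0.08 in the authors' deposited table (adjusted p of 1.63e-34, the authors' DESeq2 test). RPL22, a large-subunit protein that cells can replace by its paralog, had 41.4 and 43.8 RPM in the knockout and 24.7 and 26.6 in the wild type. Both genes were thus higher in every knockout library than in any wild-type library, RPL22 by 0.74 ± 0.09 in the authors' deposited table. The paralog RPL22L1 went the other way, with 23.4 RPM in both knockout libraries and 35.2 and 37.6 in the wild type (-0.61 ± 0.09 in the authors' deposited table, adjusted p of 5.82e-10 by the authors' DESeq2 test).

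RPS23 and RPS2, which line the decoding site and the mRNA entry of the small subunit, also rose. RPS23 had 372 and 377 RPM in the knockout and 289 and 274 in the wild type, a change of 0.42 ± 0.05 in the authors' deposited table. RPS2 had 1205 and 1217 against 923 and 918 RPM (0.41 in the authors' deposited table), and RPL24, part of a bridge between the subunits, had 352 and 360.0 against 279.5 and 277 RPM (0.37). Also called higher, at base means of at least 100, were RPL30, RPS27L, RPS20, RPL13A, RPS28, RPS12, RPL34, RPLP1, RPS13, RPL21 and RPSA, from 0.28 down to 0.12 in the authors' deposited table. RPSA, the laminin receptor protein of the small subunit, lost its call by limma without knockout library b (a change of 0.051, adjusted p of 0.393) or without wild-type library a (0.084, adjusted p of 0.142). RPL21 lost its call in the same 2 fits (adjusted p of 0.0674 and 0.0954 by limma) and when the authors' p-values were adjusted over every gene (0.0589). RPS13 lost it by limma without knockout library b (a change of 0.097, adjusted p of 0.104).

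On the lower side, RPL7A, a surface protein of the large subunit, had 337 and 333 RPM in the knockout and 595 in both wild-type libraries (-0.81 ± 0.05 in the authors' deposited table, adjusted p of 5.53e-67 by the authors' DESeq2 test). RPL18 had 204 and 205 RPM in the knockout and 357 and 354 in the wild type (-0.78 ± 0.05 in the authors' deposited table). For RPL10L, a retrocopy-derived paralog of RPL10, the values were 8.40 and 7.23 against 15.3 and 15.2 RPM (-0.92 ± 0.15 in the authors' deposited table). None of the 3 overlapped between groups, which their choice as the 3 lowest called members largely fixes. RPS29 changed by -0.56 and RPL11, which binds the smallest rRNA together with RPL5, by -0.54 in the authors' deposited table. RPL5 itself had 431 and 430.4 RPM against 527 and 522, a smaller change of -0.27 in the authors' deposited table.

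RPS6, RPS3, RPS19 and RPLP0 were not called in this comparison. RPS6 had 478 and 479.8 RPM in the knockout and 506 and 516 in the wild type, and the authors' deposited table gave -0.08 ± 0.05. RPLP0 had 1098 and 1152 against 1099 and 1118 RPM, overlapping groups, at 0.03 in the authors' deposited table. RPS19 stood at -0.01 and RPS3 at -0.09 in the authors' deposited table. Outside the naming rule, RPL36AL, the paralog of RPL36A, was at -1.21 and RPL26L1 at -1.02, while FAU (0.05) was not called in the authors' deposited table.

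Several members with clear changes stood among neighbours on the chromosome with a like value. For each member, the median log2 fold change of the 10 nearest genes of base mean 100 or more was taken from the same table, in the gene order of RefSeq. RPL11 changed by -0.54 and its 10 neighbours had a median of -0.59 in the authors' deposited table, all 10 negative. RPL28 (-0.54 beside -0.57) and RPS27A (-0.53 beside -0.55), which encodes ubiquitin fused to a ribosomal protein, also lay among 10 negative neighbours in the authors' deposited table. RPL24 lay at 0.37 beside a neighbour median of 0.40 in the authors' deposited table. Among the members farthest from the median, the neighbours of 3 had the same sign but a smaller change. These were RPS15A at 0.99 beside 0.49, RPL7A at -0.81 beside -0.41 and RPL18 at -0.78 beside -0.42 in the authors' deposited table.

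Other members departed from their neighbours. RPL22 lay at 0.74 beside a neighbour median of 0.00, RPS23 at 0.42 beside 0.08 and RPL6 at -0.46 beside 0.14 in the authors' deposited table. Across 80 members, Spearman's rho between a member and its neighbours was 0.46 in this comparison, a description of points that share libraries. The same rho was 0.15 for knockout over rescue and 0.26 for wild type over rescue in the first experiment, and -0.07 and -0.01 (79 members) for the wild-type and NTF2-deletion rescue over knockout in the second. Wild-type and knockout cells are separate lines of cells, whereas rescued and knockout cells share a line; the part of chromosome position in these values was not tested.

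**Figure D3:**
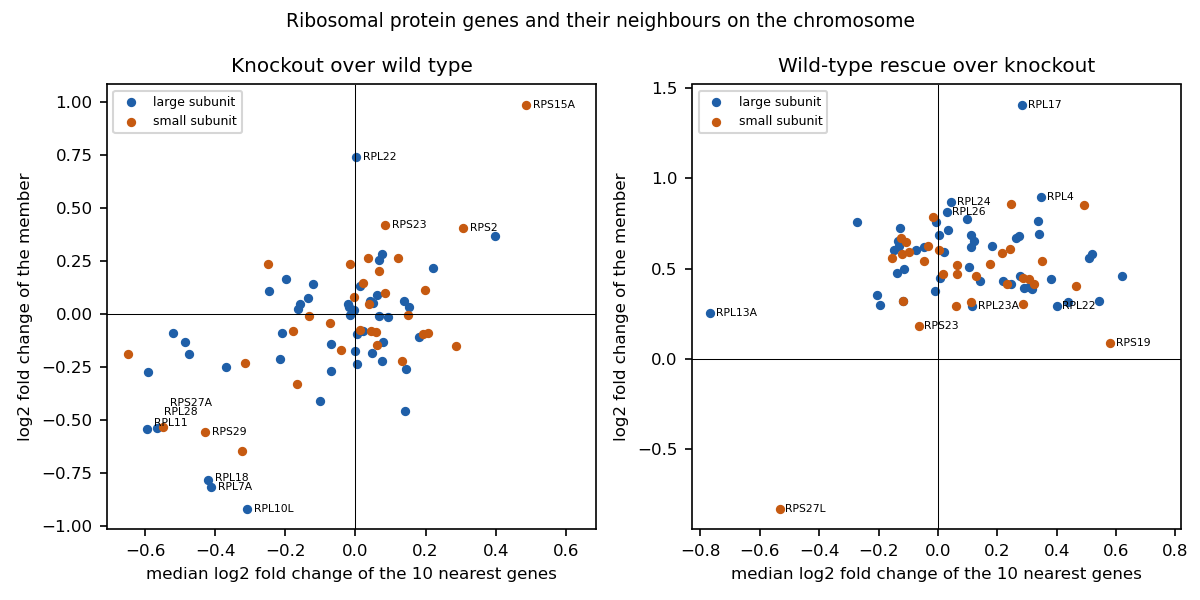
Log2 fold change of each ribosomal protein gene (y axis) against the median of its 10 nearest genes on the chromosome (x axis), from the authors' deposited tables, for knockout over wild type (left) and wild-type rescue over knockout (right). On the left the low members RPL11, RPL28 and RPS27A lie beside low neighbours and rho is 0.46; on the right rho is -0.07 and most members lie above 0 whatever their neighbours do.

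Against the G3BP1 rescue of the first experiment, ribosomal protein genes were lower in both other groups. The authors' deposited table of knockout over rescue called 72 of 81 members lower and 1 higher, where 21.5% of all genes were called lower and 16.1% higher. The wild type over the same rescue gave 71 lower and 1 higher in the authors' deposited table, where 20.4% of all genes were called lower and 15.2% higher. At base means of at least 100, the members' medians were -0.35 and -0.33 in the authors' deposited tables. All genes at that level had medians of -0.05 and -0.04 there. Large and small subunits had nearly equal medians, -0.35 and -0.35 for the knockout and -0.32 and -0.34 for the wild type, in the authors' deposited tables. The comparisons share the rescue libraries, so their likeness is no independent result.

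RPS6 shows the common pattern, with 478 and 479.8 RPM in the knockout, 506 and 516 in the wild type and 599 and 621 in the rescue. Both rescue libraries lay above all others. Its changes were -0.39 ± 0.04 for the knockout and -0.32 ± 0.04 for the wild type in the authors' deposited tables (adjusted p of 9.46e-20 and 5.13e-14, the authors' DESeq2 test). RPLP0 followed it, at 1404 and 1389 RPM in the rescue against 1098 and 1152 in the knockout (-0.35 in the authors' deposited table). RPSA (-0.38), RPS3 (-0.43), RPL13A (-0.15) and RPS19 (-0.15) were also called lower in the knockout in the authors' deposited table, and RPS27L (-0.08) was not. RPL13A lost its call on centring the table (adjusted p of 0.0557, two-sided normal test). Its change by limma ran from -0.15 to -0.077 with 1 library left out.

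Large decreases in the knockout against the rescue were those of RPL10L (-0.80), RPL18 (-0.78), RPL11 (-0.76) and RPS27A (-0.74) in the authors' deposited table. RPL11 had 268 and 275 RPM in the knockout and 445 and 453 in the rescue, and its partner RPL5 had 431 and 430.4 against 594 and 589 (-0.49 in the authors' deposited table). RPS15A was the 1 member called higher in the knockout, at 0.21 ± 0.07 in the authors' deposited table, with 68.6 and 66.1 RPM against 57.3 and 55.9 in the rescue. RPL22 (0.14) was not called, whereas RPL22L1 fell by 0.85 on the log2 scale, in the authors' deposited table.

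The wild type parted from this list. RPS15A had its lowest level there, 33.8 and 34.4 RPM, and the authors' deposited table of wild type over rescue gave -0.78 ± 0.07. RPL24 (-0.69) and RPS2 (-0.62) were the next lowest in the authors' deposited table. RPL7A was the 1 member called higher in the wild type than in the rescue, with 595 RPM in both wild-type libraries against 492 and 517, or 0.17 ± 0.04 in the authors' deposited table. RPL18 (357 and 354 against 330.4 and 358 RPM), RPL10L and RPS29 were not called between wild type and rescue in the authors' deposited table. The 26 biogenesis factors gave 24 lower in the knockout and 19 lower in the wild type than in the rescue in the authors' deposited tables, and the 17 TOP mRNAs outside the family 16 lower in each.

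In the second experiment ribosomal protein genes were higher in rescued than in knockout cells with either transgene. For the wild-type rescue, the authors' deposited table called 74 of 81 members higher and 1 lower, where 23% of all genes were called higher and 19.1% lower. For the NTF2-deletion rescue it called 78 higher and 1 lower in the authors' deposited table, where 22.8% of all genes were higher and 18.7% lower. At base means of at least 100, the members' medians were 0.54 and 0.64 in the authors' deposited tables. All genes at that level had medians of 0.18 and 0.17 there. The large subunit stood at 0.59 and 0.65 and the small subunit at 0.52 and 0.64 in the authors' deposited tables. Both comparisons use the same knockout libraries.

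The size of this rise depended on the scale. In RPM, limma on log2(RPM + 1) called 65 members higher and 3 lower in the wild-type rescue and 74 higher and 2 lower in the NTF2-deletion rescue (adjusted by Benjamini-Hochberg over 16705 genes). Medians were then 0.30 and 0.38, against -0.17 and -0.19 for the 16705 genes. This is a wider set than the genes behind the medians of the authors' tables above. With median-of-ratios size factors, as in the authors' normalisation, limma gave 78 and 79 higher, with medians of 0.52 and 0.62 against 0.02 and 0.02. In RPM without the reads of G3BP1 it gave 71 and 76 higher, with medians of 0.35 and 0.45 against -0.12 and -0.12, so leaving out the transgene's reads covered the smaller part of the gap between the scales. The distance between the members and all genes was thus about the same on both scales. Of all genes, limma called 4344 higher and 7177 lower in the wild-type rescue in RPM, but 6035 and 5391 with size factors. In the NTF2-deletion rescue it called 4158 higher and 7418 lower in RPM and 5976 and 5379 with size factors.

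RPL4 and RPL17, which line the tunnel through which new proteins leave the large subunit, were among the members that rose most. RPL4 had 747 and 766 RPM in the knockout, 1209 and 1174 in the wild-type rescue and 1237 and 1181 in the NTF2-deletion rescue, with 0.90 ± 0.04 and 0.94 ± 0.05 in the authors' deposited tables (adjusted p of 7.08e-93 and 1.49e-71, the authors' DESeq2 test). RPL17, a low gene with shared exons, had 5.95 and 5.10 RPM in the knockout, 14.5 and 11.8 in the wild-type rescue and 11.8 and 11.05 in the NTF2-deletion rescue (1.41 ± 0.27 and 1.24 ± 0.28 in the authors' deposited tables). RPL24 had 312 and 354 RPM in the knockout, 517 and 513 in the wild-type rescue and 506 and 540.1 in the NTF2-deletion rescue, or 0.87 and 0.91 in the authors' deposited tables. In all 3 genes every rescued library lay above both knockout libraries. RPL26 reached 1.01 ± 0.17 in the NTF2-deletion rescue in the authors' deposited table.

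RPS27L was the 1 member called lower in both rescues in the authors' deposited tables. RPL3L, at base means of 15.7 and 14.9, stood at -0.72 and -0.98 there and was not called. RPS27L, a paralog of RPS27 known as a target of p53, had 140.2 and 139.8 RPM in the knockout, 67.8 and 64.6 in the wild-type rescue and 72.5 and 80.1 in the NTF2-deletion rescue. The groups did not overlap, and the authors' deposited tables gave -0.83 ± 0.09 and -0.61 ± 0.09 (adjusted p of 5.97e-19 and 1.94e-10, the authors' DESeq2 test). Its 10 neighbours on the chromosome had medians of -0.53 and -0.61, 9 of 10 negative, in the authors' deposited tables. In the first experiment RPS27L had 181 and 179 RPM in the rescue and 171 and 179 in the knockout, at -0.08 for knockout over rescue and not called in the authors' deposited table.

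RPS19, a small-subunit protein known from Diamond-Blackfan anaemia, rose least among the abundant members, and its direction depended on the scale. It had 527 and 567 RPM in the knockout, 488 and 495 in the wild-type rescue and 533 and 531 in the NTF2-deletion rescue, where it overlapped the knockout. Both wild-type rescue libraries thus lay below both knockout libraries. The authors' deposited tables nevertheless gave 0.09 (not called) and 0.23 ± 0.06 (called higher), whereas limma in RPM gave -0.038 in the NTF2-deletion rescue, not called. RPS23 (called higher at 0.18 and 0.30 in the authors' deposited tables) stood at -0.057 in the wild-type rescue in RPM, and its knockout libraries, 327 and 391 RPM, enclosed both wild-type rescue libraries. RPL23A, at the tunnel exit, had 142 and 139.9 RPM in the knockout and 144 and 148 in the wild-type rescue (0.29 in the authors' deposited table). Limma in RPM gave 0.049 for RPL23A in that rescue, not called. The direction or the call of these 3 genes thus depends on the scale. Other calls do too, since limma called 65 and 74 members higher in RPM but 78 and 79 with size factors.

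The remaining members of fixed interest were called higher in the NTF2-deletion rescue, and most in the wild-type rescue, in the authors' deposited tables. In RPM RPL13A did not part the groups. Its knockout libraries (747 and 866) enclosed those of the untreated wild-type rescue (820 and 811) and NTF2-deletion rescue (848 and 837). RPL11 had 233 and 249.7 RPM in the knockout against 346 and 347 in the wild-type rescue and 359.9 and 348 in the NTF2-deletion rescue, or 0.76 and 0.82 in the authors' deposited tables. RPL5 (0.68 and 0.72), RPS3 (0.61 and 0.72), RPS6 (0.58 and 0.67), RPLP0 (0.39 and 0.51) and RPSA (0.32 and 0.45) rose in both, in the authors' deposited tables. RPL13A (0.26 and 0.33) and RPL22 (0.29 and 0.55) passed the threshold in the table of the NTF2-deletion rescue and missed it in that of the wild-type rescue, a difference that was itself not called; the authors' deposited tables gave adjusted p of 0.0512 and 0.0891 (DESeq2) for the latter. RPL22L1 rose by 1.33 and 1.28 on the log2 scale in the authors' deposited tables, from 19.9 and 17.6 RPM to between 36.7 and 42.0 in the untreated rescues.

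**Figure D4:**
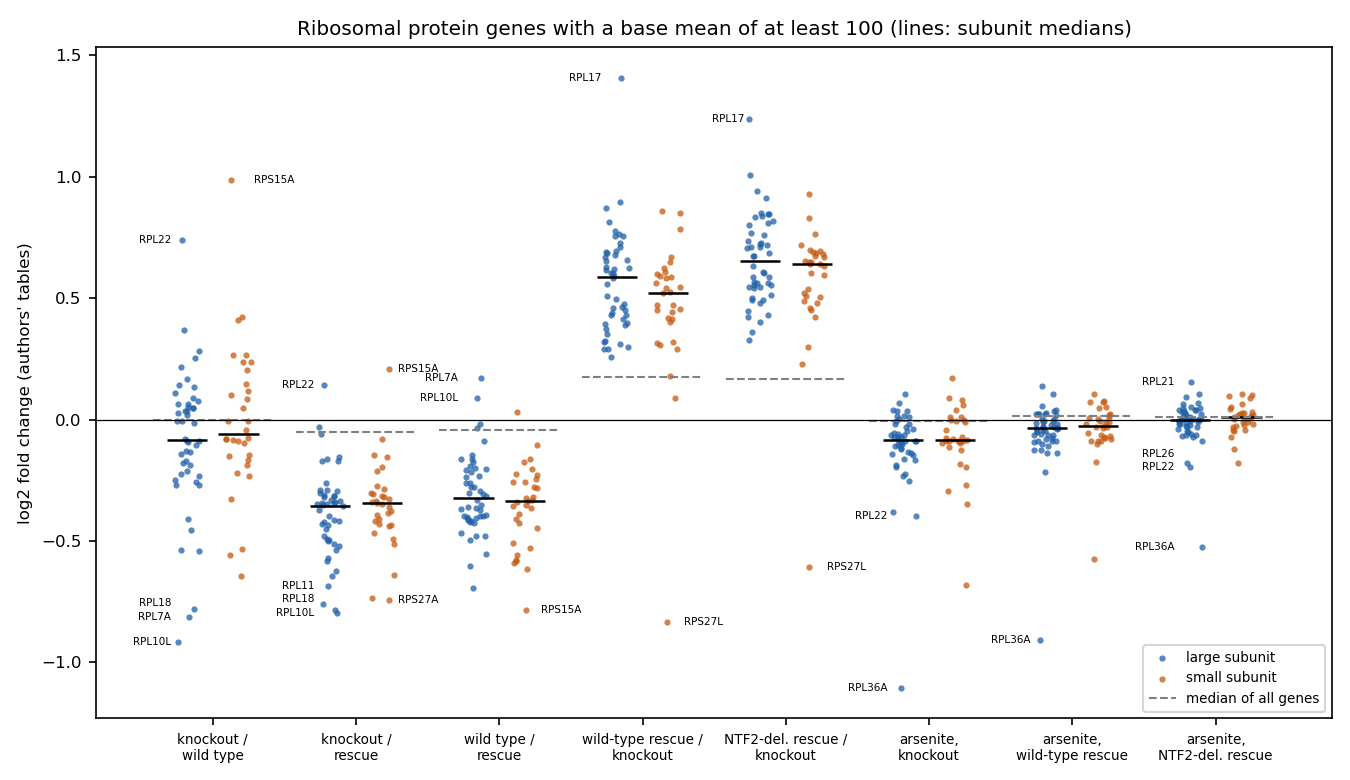
Log2 fold changes of ribosomal protein genes with base means of at least 100 in 8 of the authors' deposited tables, large subunit in blue and small in orange. Black lines are subunit medians and dashed lines the median of all genes at that level. The points named are among those over 3 scaled median absolute deviations from the members' median. The members spread around 0 in knockout over wild type, lie below 0 against the first rescue, above 0 in both rescues of the second experiment, and near 0 after arsenite with RPL36A far below.

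Other lists of the pathway rose as well in the second experiment. Of 26 ribosome biogenesis factors, the authors' deposited tables called 25 higher in each rescue, with 1 and 0 lower and medians of 1.28 and 1.27, above those of the ribosomal protein genes. BOP1, a factor of large-subunit assembly, stood at 1.83 and 1.88 and NCL, nucleolin, at 1.17 and 1.18 in the authors' deposited tables. All 17 TOP mRNAs outside the family were called higher in both rescues in the authors' deposited tables, from TPT1 (0.18 and 0.32) to NPM1 (1.23 and 1.27). MYC, a transcription factor that drives ribosome biogenesis genes, was at 2.37 and 2.15, LARP1 at 0.95 and 0.94 and MDM2 at -0.02 and -0.05 in the authors' deposited tables. COL1A1 (-1.56 and -1.46) and THY1 (-1.15 and -1.05) fell in the same comparisons in the authors' deposited tables, while VIM (0.36 and 0.43) rose.

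Ribosomal protein genes stood slightly lower in the wild-type than in the NTF2-deletion rescue, but hardly any single gene passed a test. Without arsenite, 0 of 81 members were called by the difference of the authors' fold changes (two-sided normal test, Benjamini-Hochberg over 16210 genes), where 0% of all genes were larger and 0.0185% smaller, and 1 had an unadjusted p under 0.05. The standard error of that test is too wide, because the authors' tables share the knockout libraries. In a limma fit of the libraries themselves, 0 of 81 members were called, where 148 of 16705 genes were called higher and 38 lower. An unadjusted p under 0.05 by limma was found for 21 members, and the like count over all genes was not taken. The difference was negative in 77 of 81 members with a median of -0.07 (log2 RPM), beside 0.01 for all genes. The median 95% interval of a single member reached 0.11 to either side.

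With arsenite in both, limma called 0 members higher and 3 lower in the wild-type than in the NTF2-deletion rescue, where 1.25% of all genes were higher and 0.251% lower. These were RPL12, at the base of the stalk, with -0.22 (95% interval from -0.32 to -0.12), RPL32 with -0.21 and RPS27L with -0.25 (limma, adjusted p of 0.0132, 0.0298 and 0.0487). RPL12 had 246 and 237 RPM in the wild-type rescue and 284 and 279.5 in the NTF2-deletion rescue, and RPL32 had 228 and 221 against 255 and 266, without overlap. The members' median was -0.10 and 78 of 81 were negative, and limma called 0 members when any 1 library of these groups was left out. G3BP1 took 5.04 and 5.17% of gene reads in the wild-type rescue with arsenite and 6.08 and 6.22% in the NTF2-deletion rescue; without the reads of G3BP1 the median was -0.12.

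By the authors' tests, few ribosomal protein mRNAs changed with arsenite for 2 h. In the knockout, the authors' deposited table called 0 members higher and 8 lower of 81, where 8.56% of all genes were called higher and 10.9% lower. In the wild-type rescue it called 3 higher and 7 lower of 80 in the authors' deposited table, where 8.18% of all genes were higher and 12.2% lower. In the NTF2-deletion rescue 0 were called higher and 1 lower of 80 in the authors' deposited table, where 2.43% and 6.14% of all genes were called. The members' counts in these tables are thus at or below the share of all genes. Medians were -0.09, -0.03 and 0.00 in the authors' deposited tables, with subunits apart by no more than 0.01.

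RPL36A had the lowest log2 fold change of the members with arsenite in each of the 3 kinds of cell in the authors' deposited tables. RPL36A, a large-subunit protein near the exit site for tRNA, had 23.6 and 20.1 RPM in the untreated knockout and 9.26 and 8.94 with arsenite. It went from 28.0 and 29.3 to 14.8 and 13.7 RPM in the wild-type rescue and from 26.5 and 28.0 to 17.0 and 16.5 in the NTF2-deletion rescue. Treated and untreated libraries were apart in all 3, and the authors' deposited tables gave -1.11 ± 0.20, -0.91 ± 0.11 and -0.53 ± 0.12 (adjusted p of 8.45e-07, 5.70e-15 and 3.33e-04, the authors' DESeq2 test). Its exons are shared with a readthrough gene, as stated above, and the whole call in the NTF2-deletion rescue rests on this gene. Its base means in the authors' deposited tables were 185, 384 and 341. In RPM the order differed in the NTF2-deletion rescue, where RPS10, with a base mean of 72.9, went from 6.29 and 5.97 to 3.03 and 3.49 RPM (-0.36 and not called in the authors' deposited table).

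In the knockout RPS27L (-0.35), RPL22 (-0.40), RPS23 (-0.27), RPL14 (-0.25), RPL5 (-0.22) and RPL7 (-0.19) were also called lower by the authors' deposited table. RPL22 lost its call on centring the table (adjusted p of 0.0516, two-sided normal test). When the authors' DESeq2 p-values were adjusted over every gene, RPL22 (adjusted p of 0.101) and RPL7 (0.0767) lost theirs. RPL14, a large-subunit surface protein, had 359.5 and 397 RPM untreated and 315 and 311 with arsenite, and RPL5 had 356 and 378 against 310.5 and 309. RPL22 had 35.5 and 33.9 against 24.7 and 26.4 RPM. Treated libraries lay below untreated ones in these 3 genes. The count depended on the test and on 1 library: limma in RPM called 25 members lower (30.9%, against 20.3% of all genes), 42 without untreated knockout library a (51.9% against 18.4%) and 16 without its library b (19.8% against 16.7%). By limma the share of members lower in the knockout was thus above that of all genes. In the wild-type and NTF2-deletion rescues limma called 3 and 2 lower (3.70% and 2.47%), below the 9.97% and 7.95% of all genes. RPL22 was lower with arsenite there too, at 36.4 and 35.6 against 32.7 and 32.6 RPM in the wild-type rescue. In the NTF2-deletion rescue it had 44.9 and 40.3 against 35.8 and 36.4 RPM (-0.20 and not called in the authors' deposited table). The treated libraries of the wild-type rescue also lay below the untreated ones for RPL14 and RPL5.

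In the wild-type rescue, RPL21 (0.14), RPL7A (0.10) and RPS20 (0.10) were called higher and RPL12 (-0.22) lower, besides RPL10A, RPL15, RPL4, RPLP0 and RPL36A, in the authors' deposited table. None of the 3 higher calls was kept by limma (adjusted p of 0.0593, 0.0928 and 0.0804) or by limma without any 1 library of the pair of groups, and those of RPL21 and RPL7A were also lost on centring the table (0.0616 and 0.0842) and when adjusted over every gene (0.0741 and 0.0859). RPL12 had 282 and 279 RPM untreated and 246 and 237 with arsenite. RPL21 had 125 and 123 against 137 and 138 RPM in this rescue and 134 and 129 against 147 and 146 in the NTF2-deletion rescue, where the authors' deposited table gave 0.15 and no call. RPS6 (-0.09, -0.05 and 0.00), RPS3 (-0.09, -0.01 and -0.01) and RPSA (-0.01, 0.05 and 0.06) were not called in the knockout, the wild-type rescue or the NTF2-deletion rescue in the authors' deposited tables. Neither were RPS19 (0.08, 0.07 and 0.03), RPL11 (-0.09, -0.04 and 0.01), RPL13A (-0.06, 0.02 and 0.04) and RPL22L1 (-0.17, -0.11 and 0.07) in the authors' deposited tables.

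Among the other lists, 10 of 17 TOP mRNAs outside the family were called lower by arsenite in the knockout, against 5 lower and 2 higher in the wild-type rescue and 3 lower and 1 higher in the NTF2-deletion rescue, in the authors' deposited tables. NPM1 stood at -0.31, -0.04 and -0.01 and EEF2 at -0.19, -0.14 and -0.17 in the authors' deposited tables. MYC rose by 1.34 on the log2 scale with arsenite in the knockout and was at -0.13 and -0.20, called lower, in the rescues, in the authors' deposited tables. FAU stood at 0.12, 0.33 and 0.07, called in the wild-type rescue, in the authors' deposited tables; the difference was not tested.

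The arsenite responses were then compared between kinds of cell, as the difference of the authors' fold changes over the combined standard error (two-sided normal test, Benjamini-Hochberg over all genes whose base means reached 10). Between wild-type rescue and knockout, 0 of 81 members were called, where 1.82% of all genes were larger and 2.68% smaller, and 5 had an unadjusted p under 0.05. Between NTF2-deletion rescue and knockout, 2 of 80 were called larger, where 4.04% of all genes were larger and 3.08% smaller. These were RPL14, with a difference of 0.24 ± 0.16 (95% interval, adjusted p of 0.0491), and RPS27L, with 0.37 ± 0.25 (adjusted p of 0.0484, both by the normal test above). Between the 2 rescues, 0 of 80 were called, where 0.101% of all genes were larger and 0.227% smaller, and 5 had an unadjusted p under 0.05. The like counts of unadjusted p over all genes were not taken, so nothing is read from those of the members.

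RPL14 had 359.5 and 397 RPM in the untreated and 315 and 311 in the treated knockout, but 522 and 544 against 512 and 547 in the NTF2-deletion rescue. RPS27L had 140.2 and 139.8 against 100.1 and 116 RPM in the knockout and 72.5 and 80.1 against 77.2 and 77.8 in the NTF2-deletion rescue. Treated and untreated libraries were apart in the knockout and overlapped in the rescue for both genes. Both calls were lost when each table was first centred on its own median. For RPL36A the difference between NTF2-deletion rescue and knockout was 0.58 ± 0.46 (95% interval), with an adjusted p of 0.137 (normal test). By limma, 2 members were called for the wild-type rescue (RPL14 and RPS27L) and 9 for the NTF2-deletion rescue (2.47% and 11.1%, below the 10.7% and 15.0% of all genes), all in the direction of a smaller decrease than in the knockout. With 1 library left out, these counts ran from 0 to 10 and from 3 to 16, highest without untreated knockout library a, where 11.2% and 15.1% of all genes were called, against 12.3% and 19.8% of the members.

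**Figure D5:**
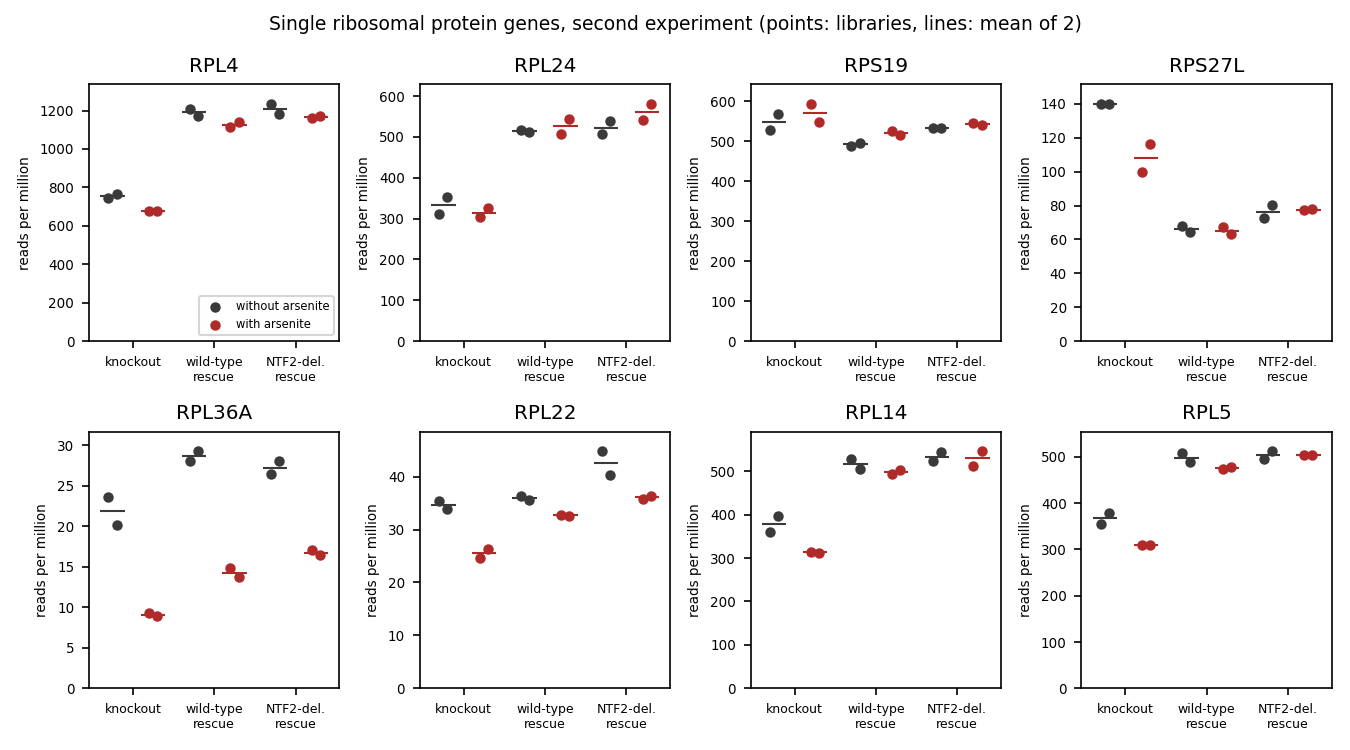
RPM of 8 ribosomal protein genes in the 12 libraries of the second experiment (points; lines are means of 2), without arsenite in black and with arsenite in red. RPL4 and RPL24 lie higher in both rescues, RPS19 hardly differs, RPS27L is highest in the knockout and RPL36A drops with arsenite. RPL22 drops with arsenite in the knockout and in both rescues. RPL14 and RPL5 drop with arsenite in the knockout and less in the wild-type rescue.

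With arsenite in both groups, rescued cells again had more ribosomal protein mRNA than knockout cells. Limma in RPM called 72 of 81 members higher and 3 lower in the wild-type rescue, where 27% of all genes were higher and 43.5% lower, and 77 higher and 2 lower in the NTF2-deletion rescue, where 26.2% were higher and 44.5% lower. Medians were 0.36 and 0.46, against -0.18 and -0.19 for all genes. With size factors, limma called 78 and 79 higher and 2 lower in each, with medians of 0.59 and 0.70, and of all genes 6127 higher and 5434 lower in the wild-type rescue in place of 4513 and 7259. For the NTF2-deletion rescue the genes called went from 4374 higher and 7432 lower to 6020 and 5557. The members' share of gene reads was 2.33 and 2.21% in the treated knockout, 2.88 and 2.89% in the treated wild-type rescue and 3.06 and 3.12% in the treated NTF2-deletion rescue, without overlap.

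RPL4 had 676 and 679 RPM in the treated knockout, 1115 and 1138 in the treated wild-type rescue and 1163 and 1173 in the treated NTF2-deletion rescue, or log2 differences of 0.73 (95% interval from 0.65 to 0.82) and 0.78 (from 0.70 to 0.87) by limma. RPL5 differed by 0.62 and 0.70, RPL11 by 0.59 and 0.67, RPS3 by 0.47 and 0.54 and RPS6 by 0.40 and 0.51 by limma. RPLP0 (0.18 and 0.32), RPSA (0.16 and 0.28) and RPL13A (0.12 and 0.18) were also called higher by limma, with the smallest differences of those in this set that were, and RPL22 differed by 0.34 and 0.48. RPS27L (-0.72 and -0.47) and RPL3L, a paralog of RPL3 known from muscle, at under 3 RPM (-1.04 and -1.17), were called lower in both by limma. In RPM, RPS19 was called lower in the wild-type rescue by limma (-0.13, adjusted p of 0.0114) and not called in the NTF2-deletion rescue (-0.07). In the wild-type rescue limma called 3 members lower in RPM, but 2 with size factors and 2 without the reads of G3BP1. The call of RPS19 is thus given for RPM only.

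The authors also compared arsenite-treated rescues with the untreated knockout, which changes 2 things at once. Treated wild-type rescue cells had 73 of 81 members higher and 1 lower in the authors' deposited table, where 25.1% of all genes were higher and 19.8% lower. Treated NTF2-deletion rescue cells had 73 higher and 2 lower in the authors' deposited table, where 23.3% of all genes were higher and 19.6% lower, with medians of 0.55 and 0.63 for the members. RPL24 (0.95 and 1.04) and RPL17 (1.34 and 1.37) were highest and RPS27L (-0.80 and -0.57) was called lower in both, and RPL3L (-1.39) in the second, in the authors' deposited tables. RPL36A, called higher in both untreated rescues, was not called here (-0.31 and -0.10 in the authors' deposited tables). RPS19 (0.22 and 0.27) and RPL23A (0.26 in the first) were called higher in the authors' deposited tables but lay at -0.071, -0.011 and -0.034 in RPM by limma.

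Some comparisons share no library, and the members' values in them can be set side by side as a description, without a test. Across 78 members, Spearman's rho between the RIP fold change and knockout over wild type was -0.39 and between RIP and knockout over rescue -0.38. Members higher in the immunoprecipitate thus tended to be lower in the knockout of the first experiment. Both of these comparisons use the same knockout libraries. Between RIP and wild type over rescue rho was 0.24. RPL18, at 2.62 in RIP, was at -0.78 in knockout over wild type in the authors' deposited tables, and RPL7A, at 2.27, was at -0.81. Between RIP and the rescues of the second experiment rho was 0.05 and 0.04. Knockout over rescue of the first experiment and the rescues over knockout of the second gave rho of -0.48 for each transgene over 79 members. Arsenite responses of the knockout and of the wild-type rescue had a rho of 0.68 over 77 members. All members in a table share the read depth of their library, and expression level was not held fixed.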

How the data were processed

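Poly-A RNA libraries were strand-preserving, per the labels' protocols. STAR 2.7.0f and DESeq2 2.11.40.6 are named in the submitters' processing notes, without role; the genome build, annotation and use of strand are not given in the sources used here. The authors deposited 11 tables of their own comparisons, with 61541 genes and 4 summary lines each, the latter removed here. Base means, as deposited, are a signal: normalised reads, averaged over the libraries compared. The deposited fold changes are log2 values with standard errors, and the deposited Wald statistic is a score, their quotient. Each deposited p-value comes from that score, with the authors' adjustment.

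Members, lists and naming rule were chosen with earlier results of these data known. Named were the 3 highest and 3 lowest called members with base means of at least 100, those called against the majority or over 3 scaled MADs from the median, and RPS6, RPS3, RPS19, RPSA, RPL5, RPL11, RPL13A, RPLP0, RPS27L and RPL22 with RPL22L1. For genes named by their calls, libraries that do not overlap between groups are no further support, and the share of all genes without overlap is not given here. Whole reads per U2OS library were worked out from base means shared between the authors' deposited tables. All 38470 and 38913 rows with reads had an exact solution, and size factors recomputed from these reads equalled those solved for. Differences of fold changes and limma 3.58.1 (trend, log2(RPM + 1), genes with at least 10 reads on average; all 12 libraries of the second experiment in 1 fit) were adjusted by Benjamini-Hochberg over all genes. Both were tested on simulated data. The closing section names the alternatives. Values of a few single members are not reported here; counts and medians include every member. Another 48 libraries were not analysed here.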

Additional observations from a re-analysis of the deposited data

Results flagged for a closer look

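Responses to arsenite that differed between kinds of cell, by a test of the difference itself, included these genes. By the difference of the authors' fold changes, NTF2-deletion rescue minus knockout, RPL14 differed by 0.24 and RPS27L by 0.37 (log2). By limma's interaction term for the same pair of cells, RPL35A differed by 0.20, RPL36A by 0.51, RPL5 by 0.24, RPL7 by 0.23, RPS23 by 0.26 and RPS7 by 0.20. For wild-type rescue minus knockout, limma gave 0.22 for RPL14 and 0.35 for RPS27L. Every one of these differences is positive, and all share the knockout libraries. By limma, 2.47% of members were called for the wild-type rescue and 11.1% for the NTF2-deletion rescue, below the 10.7% and 15.0% of all genes. The number called depended on single libraries: without untreated knockout library a, limma called 10 members for the wild-type rescue and 16 for the NTF2-deletion rescue (12.3% and 19.8%, against 11.2% and 15.1% of all genes), and without its library b 1 and 3 (1.23% and 3.70%, against 9.06% and 13.1%). Without library b of the untreated, or library a of the treated, wild-type rescue it called 0 for that rescue. Library b of the untreated knockout had 2.52% of its gene reads on ribosomal protein genes and library a 2.304%. The part of this gap in the differences was not tested.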

How the results depend on the processing

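In this paragraph, shares of all genes called under the same setting stand in brackets. Dividing the authors' statistics by their robust spread left 42 higher in RIP (4.20%), 9 lower (7.09%) and 5 higher (6.25%) in knockout over wild type, 47 lower in wild type over rescue (6.68%), 38 higher in the wild-type rescue (7.23%), 43 in the treated wild-type rescue over untreated knockout (8.59%), and 1 and 2 lower with arsenite in the knockout and the wild-type rescue (4.65% and 5.18%). Asking for an absolute log2 fold change of at least 0.5 left 8 lower (12.2%) and 3 higher (11.5%) in knockout over wild type, 16 and 12 lower against the first rescue (9.51% and 8.27%), 44 higher in the wild-type rescue (16.8%), 46 in the treated one (19.2%), and 2 and 2 lower with arsenite (6.32% and 2.60%). Centring gave 14 lower with arsenite in the wild-type rescue (13.1%) and 0 in the NTF2-deletion difference (6.94%).

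By limma, arsenite gave 25, 3 and 2 lower, and the shares of all genes are given with the arsenite results above. It gave differences of 2 and 9, where 1794 and 2508 of 16705 genes were called. Leaving out each library gave 16 to 42 lower in the knockout, 1 to 3 in the NTF2-deletion rescue, 0 to 10 and 3 to 16 differences, and 0 to 0 lower for the 2 treated rescues. Without the reads of G3BP1 limma called 5 differences for the wild-type rescue, for which the share of all genes is not given here. Between the untreated rescues it then called 1 member, where 108 of 16705 genes were higher and 52 lower. Size factors also gave 1 member there, where 111 genes were higher and 53 lower. Without the readthrough genes 0 were lower in the NTF2-deletion rescue with arsenite. These scalings and that exclusion were chosen after seeing the data. The cause of these shifts was not tested.

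Reversed in RPM were RPS23 (-0.057) in the wild-type rescue, RPS19 (-0.038) in the NTF2-deletion rescue, and RPS19 (-0.071 and -0.011) and RPL23A (-0.034) in the treated rescues over untreated knockout, the first also on centring (-0.00129). Leaving out libraries, RPS23 ran from -0.18 to 0.071 and from -0.090 to 0.17 in the wild-type and NTF2-deletion rescue, RPS19 from -0.092 to 0.016, and in the treated rescues RPS19 from -0.13 to -0.018 and from -0.065 to 0.043 and RPL23A from -0.055 to -0.014. The tract search within 5 bases of the start gave 82.8%.

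No paired analysis was possible because the recovered libraries carry no replicate numbers. For RIP, limma, leaving out a library and unshrunken ratios were not run, since reads per library were not recovered. Genes with base means up to about 300 in the arsenite experiment (such as RPL3L, RPS10, RPL10L, RPL17 and RPL36A) are the least precise.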
